A study of Mus musculus with 14 samples.

Results

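Immunoglobulin gene segments are the pieces of DNA from which B cells assemble antibody genes. The segments described here are all genes whose biotype begins with IG_ in variant tables from whole-exome sequencing of 12 mouse mammary tumours. They number 399 of the 52292 genes listed in any tumour. Of these, 250 are functional (208 V, 19 D, 12 J and 11 constant genes) and 149 are pseudogenes (148 V and 1 constant). Each tumour had between 233 and 271 of them listed, and an unlisted segment was taken as a count of 0.

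All 12 tumours grew from Balb/c mammary p53null tissue, that is, tissue of mice without the tumour suppressor p53, placed in the mammary fat pad of a recipient and collected at a maximum diameter of 2 cm. In the gel experiment, with 6 tumours, the recipients had also received a hydrogel of rat tail collagen 1 and basement membrane extract (20%). The collagen of stiff gel tumours A7, A8 and A9 was crosslinked with 500 mM L-ribose, and that of soft gel tumours A1, A2 and A3 was not. Gels went into the cleared mammary fat pad of mice aged 3 to 4 weeks, and the fragments came from syngeneic p53null mice aged 8 to 10 weeks. The other 6 tumours grew in LysM-Cre GPX4 mice, either knockout (KO host, with B4, B5 and B6) or wild type (WT host, with B1, B2 and B3). Neither the strain nor the age of these recipients is given separately. LysM-Cre is active in myeloid cells of the host, so it targets GPX4, an enzyme that reduces lipid peroxides, in those cells and not in the implanted tissue. The question of the study concerns DNA damage under tissue tension and under oxidative stress. A further 2 tail samples were not analysed here.

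In the germline, V segments stand in long arrays, followed by D (heavy chain only), J and constant genes. A developing B cell joins one of each by V(D)J recombination, and other cells keep the unjoined array. The mouse has a heavy chain locus (Igh, chromosome 12), a kappa light chain locus (Igk, chromosome 6) and a lambda light chain locus (Igl, chromosome 16). V segments fall into families of similar sequence, which makes short reads from them hard to place. The reference genome is that of C57BL/6J mice, and Balb/c and C57BL/6 mice carry different heavy chain haplotypes. The tables give no allele fraction, so inherited, somatic and false calls cannot be told apart.

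The unit throughout is a whole-number count of variants in a segment. Coding variants are those of HIGH impact (such as a frameshift or a stop gained), MODERATE impact (such as a missense change) and LOW impact (such as a synonymous change). All listed variants add the MODIFIER class, which was 95.9% of all listed variants in functional segments. Of these MODIFIER variants, 98.6% lay upstream or downstream of the segment, and such a variant counts in every neighbour it flanks. Of 339 segments with a summed all listed count of at least 3, 20 had the same 12 counts as another segment, in 8 sets. The D segments Ighd5-3 and Ighd5-7, for example, differed in 0 tumours. Read depth is unknown. The tumours held between 14434 and 27337 coding variants in protein-coding genes, with A9 and B5 lowest. Counts of DNA variants carry no level of any cell type, so the tissue label could not be checked with markers.

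The heavy chain locus held nearly all coding variants of immunoglobulin segments. Functional Igh segments had 3230 of the 3244 coding variants summed over tumours (99.6%), in 87 of 140 segments. Functional Igk segments had 12 (0.370%), in 7 of 98 segments, and the 8 Igl segments had 0. Flanking sequence showed the same split. With pseudogenes included, all listed variants averaged 49.0 per segment and tumour in Igh, 0.398 in Igk and 0.365 in Igl. Functional segments alone averaged 47.1 in Igh and 0.406 in Igk. Protein-coding genes averaged 22.5 and functional T-cell receptor segments 9.69. Of the segments that a RefSeq gene table (GRCm38.p6) places in each locus, 97.2% of 215 in Igh, 89.3% of 168 in Igk and 66.7% of 12 in Igl were listed in at least 1 tumour. The table places 368 of the 399 segments, and the other 31 held 2 functional coding variants. Listed in all 12 tumours were 165 of 210 segments in Igh, 1 of 150 in Igk and 0 of 8 in Igl.

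Between tumours the number of coding variants in functional segments varied over a wide range, from 144 in B5 to 399 in B1. Stiff gel tumours had 320 (A7), 260 (A8) and 178 (A9), and soft gel tumours had 239 (A1), 273 (A2) and 254 (A3). KO host tumours had 244 (B4), 144 (B5) and 322 (B6), and WT host tumours had 399 (B1), 324 (B2) and 287 (B3). A9 was the lowest stiff gel tumour and B5 the lowest KO host tumour. Relative to 100 coding variants in protein-coding genes, the segments had 1.87, 1.60 and 1.15 in stiff gel tumours and 1.44, 1.40 and 1.43 in soft gel tumours. The same ratio was 1.34, 0.998 and 1.31 in KO host tumours and 1.46, 1.39 and 1.37 in WT host tumours. On this scale A7 was highest and B5 lowest, and functional T-cell receptor segments stood at 0.155 to 0.348.

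**Figure D1:**
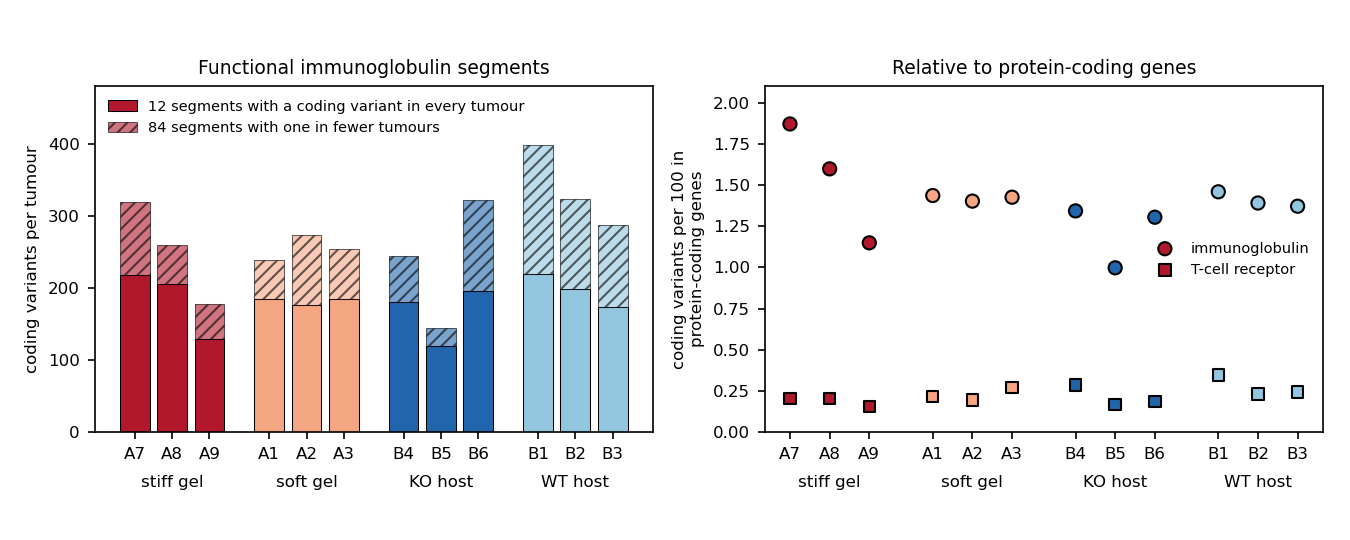
Left, coding variants per tumour in functional immunoglobulin segments, as bars from 0, split into the 12 segments with a coding variant in every tumour (solid) and the other 84 with one (hatched). Right, coding variants per 100 in protein-coding genes for immunoglobulin (circles) and T-cell receptor (squares) segments; A9 and B5 are the lowest immunoglobulin values in both panels.

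V segments, which encode most of the antigen-binding domain, had 2925 of the coding variants, in 84 of the 208 functional V genes. Family Ighv1, the largest, had 1444 of them in 53 functional members (44.5% of all coding variants). Family Ighv8 had 510 in 8 members (15.7%), and Ighv5 had 381 in 10 members (11.7%).

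The V segments with the highest mean coding count were Ighv8-11, Ighv1-24 and Ighv1-63, which together held 35.7% of all coding variants. Ighv8-11 had 40, 45 and 35 in stiff gel tumours and 30, 37 and 34 in soft gel tumours. In host tumours it had 35, 31 and 37 with KO hosts and 41, 35 and 30 with WT hosts. No tumour stood far from the others at this segment, and its missense variants ranged over tumours between 12 and 22. Ighv1-24 had 40, 40 and 17 in stiff gel tumours and 33, 28 and 28 in soft gel tumours, with 33, 28 and 40 in KO host tumours and 40, 35 and 40 in WT host tumours. Here A9 alone was low. Ighv1-63 had 30, 27 and 31 in stiff gel tumours and 28, 30 and 29 in soft gel tumours, with 26, 17 and 29 in KO host tumours and 30, 30 and 20 in WT host tumours. At this segment A9 was the highest tumour and B5 the lowest.

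Further V segments were chosen after their values were seen, for how they varied. Ighv5-6 had 31, 23 and 5 coding variants in stiff gel tumours and 30, 19 and 32 in soft gel tumours, with 19, 7 and 18 in KO host tumours and 24, 18 and 17 in WT host tumours. Ighv7-2 had 14, 12 and 2 in stiff gel tumours and 14, 13 and 13 in soft gel tumours, with 13, 4 and 12 in KO host tumours and 14, 14 and 12 in WT host tumours. Both segments were lowest in A9 and B5, and Ighv7-2 was near level in the other tumours. Ighv1-59 had coding variants in 10 tumours, at 4 to 24, and 0 in A9 and B5. Ighv5-9-1 ran the other way in A9: it had 28, 6 and 24 in stiff gel tumours and 5, 7 and 4 in soft gel tumours, with 1, 0 and 10 in KO host tumours and 7, 5 and 5 in WT host tumours.

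D segments, short pieces that lie between V and J, had a coding variant in 2 of 19 genes. Ighd4-1 had 1 in A3 and Ighd5-2 had 1 in B4, each with 0 in the other 11 tumours, and Ighd1-1 had 0 in all 12. J segments, which complete the variable domain, had 66 coding variants, all in Ighj1 and Ighj2. Ighj1 had 5 in every tumour but A2, which had 2. Those 5 were 2 missense variants and 1 each of frameshift, stop gained and synonymous. Ighj2 had 1 in 9 tumours and 0 in A9, A2 and B5, and Igkj1, of the kappa locus, had 0 in all 12.

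Constant genes set the antibody class. All 8 heavy chain constant genes had coding variants, 251 in total, and Igkc, Iglc1 and Iglc2 of the light chains had 0 in all 12 tumours. Their sum was 30, 19 and 8 in stiff gel tumours and 14, 19 and 15 in soft gel tumours, with 14, 10 and 24 in KO host tumours and 44, 32 and 22 in WT host tumours. Ighd, which encodes the delta chain of IgD, had the most. It had 9, 12 and 3 in stiff gel tumours and 10, 6 and 8 in soft gel tumours, with 10, 1 and 10 in KO host tumours and 11, 18 and 8 in WT host tumours. A9 and B5 were again the lowest in their groups. Ighe, of IgE, had 3 in each stiff gel tumour and 3, 3 and 1 in soft gel tumours, with 3, 4 and 6 in KO host tumours and 11, 3 and 4 in WT host tumours. B1 alone was high, and 8 of its 11 were missense.

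The remaining heavy chain classes were patchy. Igha, of IgA, had 8, 0 and 0 coding variants in stiff gel tumours and 0, 0 and 1 in soft gel tumours, with 0, 3 and 5 in KO host tumours and 5, 3 and 2 in WT host tumours. Ighg1 had 8, 3 and 0 in stiff gel tumours and 0, 0 and 3 in soft gel tumours, with 0, 0 and 2 in KO host tumours and 1 in each WT host tumour. Ighg2b, another IgG gene, had 9 in A2, 8 in B1 and 0 elsewhere. Ighg2c, an IgG gene of C57BL/6 mice, had 1 in A3, 6 in B1 and 2 in B3, and Ighm, of IgM, had 5 in B2 and 4 in B3. Ighg3 had 1 or 2 in every tumour. A7 was the highest gel tumour at Igha and Ighg1, and B1 was high at Ighe, Ighg2b and Ighg2c.

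**Figure D2:**
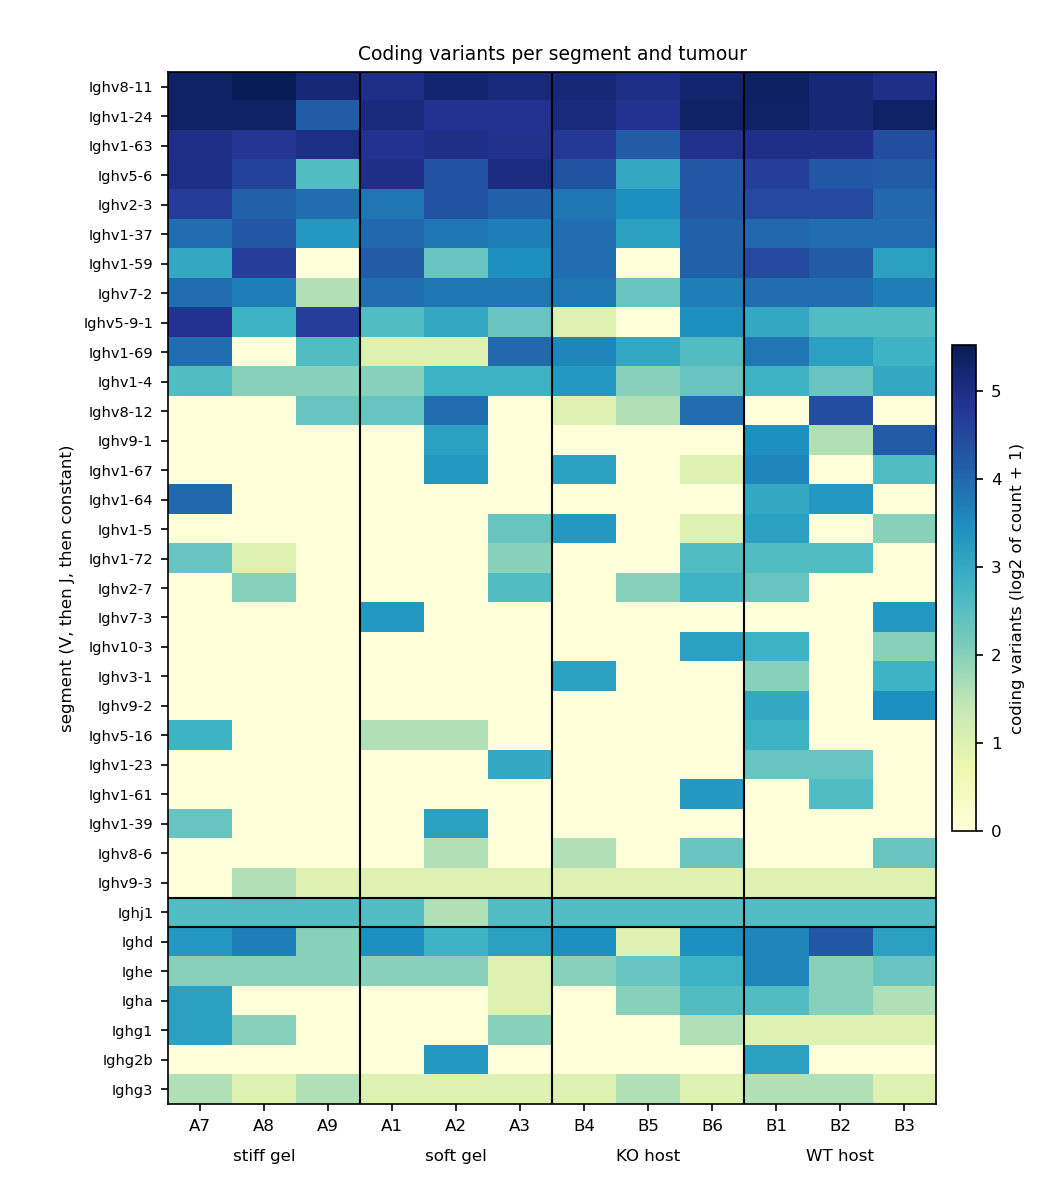
Coding variants per tumour (columns, 3 per group) in the 35 functional segments with a mean of at least 1 over the 12 tumours, ordered by mean within V, J and constant genes. Colour is log2 of the count plus 1; the upper V rows, Ighj1 and Ighe are filled in every tumour, while rows such as Ighv9-1 and Ighg2b are filled in 4 and 2 tumours.

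Coding variants fell on a small set of segments present in every tumour and a larger set present in few. Of the 250 functional segments, 96 had a coding variant in at least 1 tumour (38.4%), against 66.1% of protein-coding genes and 34.2% of functional T-cell receptor segments. Of these 96, 12 had one in all 12 tumours: Ighv8-11, Ighv1-24, Ighv1-63, Ighv5-6, Ighv2-3, Ighv1-37, Ighv7-2, Ighv1-4, Ighj1, Ighd, Ighe and Ighg3. They held 2188 of the 3244 coding variants (67.4%), and between 55.1% (B1) and 83.3% (B5) of the coding variants of a tumour. Another 30 segments had coding variants in 1 tumour each, 88 in all, and 10 of these 30 were in B1, with 34 variants. Among the 96, 31.3% were found in 1 tumour and 12.5% in all 12, against 28.1% and 15.8% of the protein-coding genes with a coding variant.

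Patchy segments were often dense where they were present. Of 49 segments with 5 or more coding variants in some tumour, 38 had 0 in at least 1 other tumour and 32 had 0 in at least 6. The 12 segments found in every tumour summed to 218, 205 and 129 in stiff gel tumours and 185, 177 and 185 in soft gel tumours, with 181, 120 and 196 in KO host tumours and 220, 199 and 173 in WT host tumours. The other 84 summed to 102, 55 and 49 in stiff gel tumours and 54, 96 and 69 in soft gel tumours, with 63, 24 and 126 in KO host tumours and 179, 125 and 114 in WT host tumours. The second set spread more widely, between 24 (B5) and 179 (B1), against 120 and 220 for the first. The sets were split by these same counts, and every segment with a 0 fell in the second. A wider spread there is thus partly built in.

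**Figure D3:**
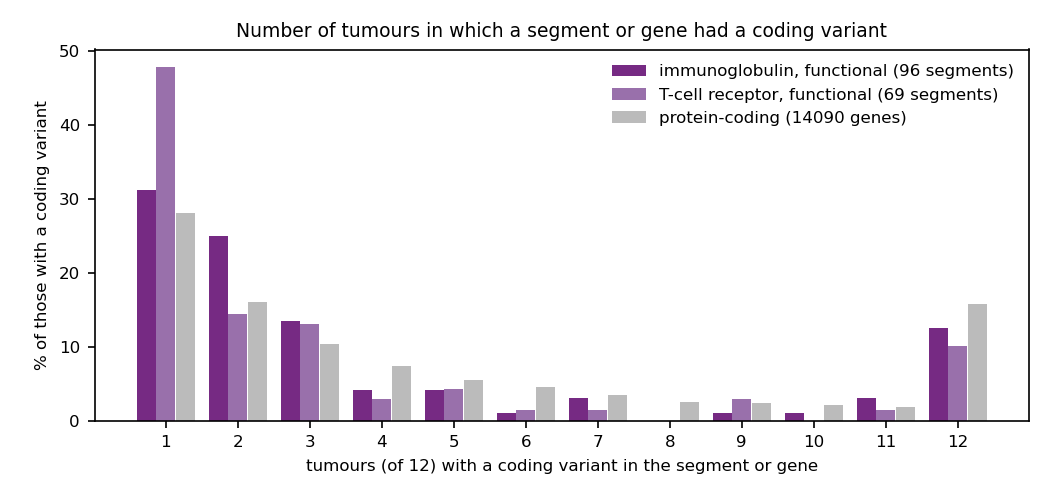
Share of functional immunoglobulin segments, functional T-cell receptor segments and protein-coding genes with a coding variant (vertical axis, percent of those with one) by the number of tumours in which they had it (horizontal axis). All distributions are highest at 1 tumour, and the immunoglobulin share falls to 0% at 8 tumours and stands at 12.5% at 12.

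The kinds of coding change were spread over missense, synonymous, frameshift, splice region and stop-gained variants, with fewer frameshifts for each missense variant than in protein-coding genes. Over the 12 tumours the functional segments held 1543 missense, 1090 synonymous, 276 frameshift, 242 splice region and 121 stop-gained variants. HIGH and MODERATE variants made up 57.8% to 64.8% of coding variants per tumour (median 61.6%), against 57.6% to 60.5% in protein-coding genes (median 60.0%). Per 100 missense variants, the segments had 60.7 to 83.3 synonymous variants (median 69.8), against 76.4 to 82.6 in protein-coding genes (median 78.1). Frameshift variants numbered 15 to 22.6 per 100 missense variants (median 17.4), against 19.9 to 30.8 in protein-coding genes (median 28.7). Stop-gained variants numbered 2.82 to 10.4 (median 7.60), against 6.27 to 7.16 (median 6.84). These differences are descriptions over the same 12 tumours and were not tested.

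Pseudogene segments, which cannot give a working chain, were counted by exon variants of noncoding transcripts. These numbered 246, 229 and 89 in stiff gel tumours and 232, 217 and 223 in soft gel tumours, with 201, 110 and 270 in KO host tumours and 278, 288 and 253 in WT host tumours. A9 and B5 were again far below the rest. Of the 149 pseudogenes, 54 had such a variant, and 10 had one in every tumour, with 1903 of the 2636 variants. By all listed variants the highest V pseudogenes were Ighv1-35, Ighv1-29 and Ighv8-7. Ighv1-35 had 171, 174 and 122 all listed variants in stiff gel tumours and 164, 165 and 163 in soft gel tumours, with 188, 111 and 152 in KO host tumours and 208, 188 and 180 in WT host tumours. Ighv1-29 had 70 in A9 and 63 in B5, and 161 to 186 in the other 10. Ighv8-7 had 48 in A9 and 41 in B5, and 116 to 169 in the other 10. Gm37944, the constant pseudogene, had 10 (A2) to 42 (B6) all listed variants.

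Tumours A9 and B5 shared low counts over much of the heavy chain locus. Among 179 immunoglobulin segments with a mean of at least 10 all listed variants, A9 and B5 were both below all other tumours in 88 (49.2%). The same held for 14.5% of 7867 protein-coding genes and 38.6% of 88 T-cell receptor segments of that density. The median ratio of their mean to that of the other 10 tumours was 0.491 in immunoglobulin segments, 0.689 in protein-coding genes and 0.545 in T-cell receptor segments. This pair was picked because its counts were low, so the shares are a description. Their part in the group comparisons was not tested, and differences in sums below are also given without A9, B5 or both.

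**Figure D4:**
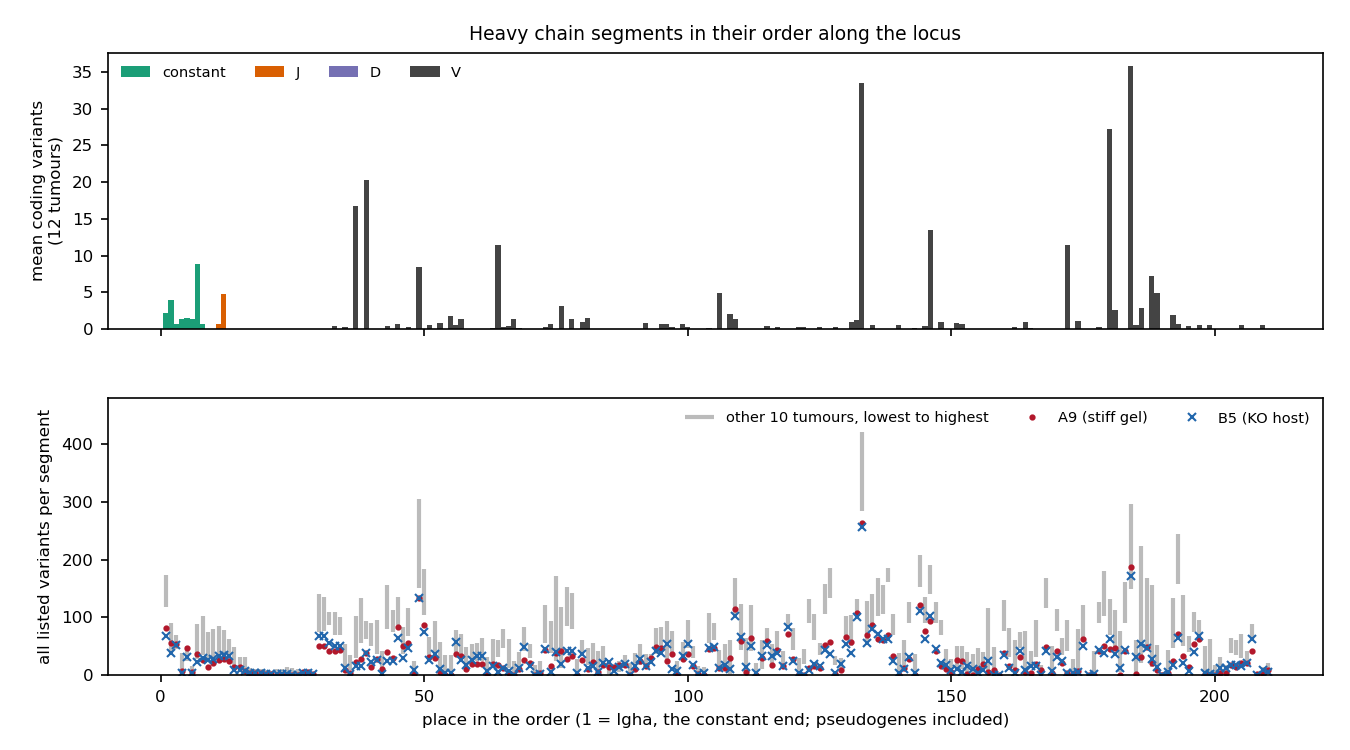
Heavy chain segments in their order along the locus, from Igha at place 1 to place 210. Upper panel, mean coding variants over the 12 tumours by segment type; lower panel, all listed variants per segment, with grey bars from the lowest to the highest of the other 10 tumours and points for A9 and B5, which lie at or below the bars at many segments and inside them at others.

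Between stiff and soft gel tumours, a comparison that addresses tissue stiffness, no immunoglobulin segment passed the test. Functional segments averaged 253 ± 71.3 coding variants in stiff gel tumours and 255 ± 17.0 in soft gel tumours (SD, n = 3 each), a difference of -2.67 that was smaller than the spread between replicates. Single tumours turned or widened it, to 34.7 without A9, 6.17 without A2, -36.3 without A7, -6.33 without A8 and -10.8 without A1. Relative to 100 coding variants of protein-coding genes the groups also overlapped, at 1.54 ± 0.365 in stiff gel tumours and 1.42 ± 0.0174 in soft gel tumours (SD, n = 3 each). A7 and A8 lay above every soft gel tumour and A9 below. The difference was 0.118, and it was 0.313 without A9 and -0.0479 without A7. Constant genes averaged 19 ± 11 in stiff gel tumours and 16 ± 2.65 in soft gel tumours (SD, n = 3 each), which is 3 more in stiff gels. Leaving out A9 made this 8.5, and leaving out A7 made it -2.5.

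Per segment, edgeR's quasi-likelihood test with Benjamini-Hochberg adjustment over all 6316 genes tested called 0% of genes and 0 of 53 immunoglobulin segments on coding variants. At an unadjusted p under 0.05 it called 2.53% of genes and 0 segments. The segment with the lowest unadjusted p was Ighv5-9-1 (values above), with 19.3 ± 11.7 in stiff gel tumours and 5.33 ± 1.53 in soft gel tumours (SD, n = 3 each), a log2 fold change of 1.83 ± 0.715 (an approximate SE, taken from the fold change and its F statistic; edgeR adjusted p = 1). Its groups overlapped. Of the 53, 23 had a higher mean in stiff gel tumours (43.4%, against 37.9% of genes) and 22 a lower mean (41.5%, against 48.0%). The median log2 fold change was 0.00 over the segments, the same as over all genes. In no segment did the coding counts of the groups fail to overlap, against 1.39% of all genes tested without overlap and higher, and 2.64% without overlap and lower.

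On all listed variants, edgeR called 3 of 42434 genes (0.00707%) between stiff and soft gel tumours and 0 of 283 segments, with 16 segments (5.65%, against 7.44% of genes) at an unadjusted p under 0.05. Without overlap, 14 segments were lower (4.95%, against 7.55% of genes) and 4 were higher (1.41%, against 1.57%). The lowest adjusted p belonged to Ighv1-61, which had 7, 7 and 7 in stiff gel tumours and 35, 18 and 29 in soft gel tumours (log2 fold change -1.95 ± 0.361, approximate SE; edgeR adjusted p = 0.181; exact permutation p = 0.1, two-sided and the smallest possible with 3 against 3). Without a count filter its edgeR adjusted p was 0.0388, and over 15 alternatives it lay between 0.0388 and 0.759. Pseudogenes summed to 3280 ± 1042 all listed variants in stiff gel tumours and 3772 ± 134 in soft gel tumours (SD, n = 3 each), with overlap. The difference of -493 turned to 107 without A9, and was -838 without A7 and -746 without A8.

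Between KO host and WT host tumours, which addresses lipid peroxide defence in myeloid cells, functional segments were lower on average in KO hosts, and the groups overlapped. Coding variants averaged 237 ± 89.2 in KO host tumours and 337 ± 57.1 in WT host tumours (SD, n = 3 each), a difference of -100.0, or -29.7%. Leaving out B5 gave a difference of -53.7. Coding variants in constant genes averaged 16 ± 7.21 in KO host tumours and 32.7 ± 11.02 in WT host tumours (SD, n = 3 each), a difference of -16.7 that was -13.7 without B5 and -11 without B1. Relative to 100 coding variants of protein-coding genes the groups did not overlap, at 1.22 ± 0.190 in KO host tumours and 1.41 ± 0.0460 in WT host tumours (SD, n = 3 each). The difference was -0.192, and -0.0834 without B5.

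Per segment, edgeR called 0% of 7279 genes and 0 of 71 immunoglobulin segments on coding variants between KO host and WT host tumours. At an unadjusted p under 0.05 it called 3.78% of genes and 1 segment. Of the 71, 13 had a higher mean in KO host tumours (18.3%, against 28.6% of genes) and 50 a lower mean (70.4%, against 57.7%). The median log2 fold change was -0.42 over the segments, against -0.28 over all genes tested. Both medians moved with the scaling, to -0.29 and -0.15 with TMM factors and to -0.11 and 0.03 with the summed count as library size. In 2 segments every KO host tumour was below every WT host tumour (2.82%, against 4.59% of genes), and in 0 segments was every KO host tumour above (0.92% of genes). Ighv9-1, a V gene, had 0 in each KO host tumour and 10, 2 and 17 in WT host tumours, and the only gel tumour with any was A2, with 8. Its edgeR adjusted p was 1 and its exact permutation p was 0.1, two-sided and the smallest possible. Ighv1-51, a V pseudogene, had 0 in each KO host tumour and 2, 1 and 1 in WT host tumours, all of them splice region variants (edgeR adjusted p = 1).

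On all listed variants, edgeR called 1 of 42374 genes (0.00236%) between KO host and WT host tumours and 0 of 266 segments, with 13 segments (4.89%, against 4.67% of genes) at an unadjusted p under 0.05. Without overlap, 20 segments were lower in KO hosts (7.52%, against 6.89% of genes) and 1 was higher (0.376%, against 0.927%). The pseudogene Gm42990 had the lowest adjusted p, with 2, 3 and 0 in KO host tumours and 22, 32 and 15 in WT host tumours (log2 fold change -3.69 ± 0.742, approximate SE; edgeR adjusted p = 0.532). Pseudogenes summed to 3723 ± 1436 all listed variants in KO host tumours and 4980 ± 529 in WT host tumours (SD, n = 3 each), and these groups overlapped. The difference was -1257, and -457 without B5.

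Gel and host tumours differ in the recipient mice and in the hydrogel, and these cannot be told apart. On coding variants they overlapped in each of 88 segments tested, and 0.211% of genes were lower and 0% higher without overlap. Functional segments averaged 254 ± 46.4 in gel tumours and 287 ± 86.5 in host tumours (SD, n = 6 each), a difference of -32.7 that was smaller than the spread. It was -46 without A9 and B5, -17.5 without A9, -61.2 without B5 and -10.2 without B1. In constant genes coding variants averaged 17.5 ± 7.34 in gel tumours and 24.3 ± 12.4 in host tumours (SD, n = 6 each), or -6.83, which became -7.8 with A9 and B5 left out and -2.9 with B1 left out. Relative to 100 coding variants of protein-coding genes the order turned, with 1.48 ± 0.240 in gel tumours and 1.31 ± 0.162 in host tumours (SD, n = 6 each), again with overlap. That difference was 0.170, 0.173 without A9 and B5, 0.107 without B5 and 0.0914 without A7. In a fit of all 12 tumours edgeR called 0% of 9474 genes and 0 of 88 segments. At an unadjusted p under 0.05 it called 7.8% of genes and 3 segments, namely Ighv10-3, Ighv3-1 and Ighe. Where a gel group and a host group both held only 0s, this contrast could not be estimated and its p stayed near 1. This held for many of the 88 segments, for example Ighm (edgeR unadjusted p = 0.99963) and Ighv9-2 (edgeR unadjusted p = 0.99979). Such segments and genes could not be called, so for them these results decide nothing. Ighe had 2.67 ± 0.816 in gel tumours and 5.17 ± 3.06 in host tumours (SD, n = 6 each), a log2 fold change of -0.91 ± 0.393 (approximate SE; edgeR adjusted p = 0.541).

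On all listed variants, 10 of 339 immunoglobulin segments were lower in gel tumours and 0 were higher by edgeR. Their share of 2.95% was near the background, where 2.95% of 48568 genes were called and 2.82% were called lower. The median log2 fold change was -0.29 over the segments and -0.27 over all genes, and both turned to 0.15 with the summed count as library size and stood at 0.04 and 0.03 with TMM factors. The called segments were 7 V genes (Ighv1-67, Ighv8-4, Ighv1-66, Ighv1-61, Ighv2-6, Ighv1-7 and Ighv1-52) and 3 V pseudogenes (Ighv5-19, Ighv8-10 and Gm37976).

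Ighv1-67 had 31, 21 and 32 all listed variants in stiff gel tumours and 33, 49 and 91 in soft gel tumours, with 74, 54 and 150 in KO host tumours and 223, 100 and 141 in WT host tumours. Only A3, at 91, was above any host tumour. The means were 42.8 ± 25.3 in gel tumours and 124 ± 61.2 in host tumours (SD, n = 6 each; log2 fold change -1.57 ± 0.300, approximate SE; edgeR adjusted p = 0.0184; exact permutation p = 0.00866, two-sided). Its neighbour Ighv1-66 had 16, 0 and 1 in stiff gel tumours and 23, 19 and 23 in soft gel tumours, with 45, 31 and 60 in KO host tumours and 50, 59 and 31 in WT host tumours. Of the 10 it was the one whose gel and host tumours did not overlap, which also held for 0.616% of genes in that direction, and 0 segments were higher without overlap (0.0638% of genes). Its log2 fold change was -2.04 ± 0.457 (approximate SE; edgeR adjusted p = 0.0288; exact permutation p = 0.00216, two-sided and the smallest possible). Both exact permutation p-values are unadjusted and were computed only because these segments were called, so they add no support. In groups without overlap, the smallest possible value follows from that alone.

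Ighv8-4 had 6, 4 and 6 all listed variants in stiff gel tumours and 0, 33 and 39 in soft gel tumours, with 33, 25 and 116 in KO host tumours and 77, 85 and 80 in WT host tumours (gel minus host log2 fold change -2.58; edgeR adjusted p = 0.0240). Ighv8-10 had 30, 6 and 0 in stiff gel tumours and 6, 13 and 10 in soft gel tumours, with 59, 13 and 62 in KO host tumours and 39, 35 and 77 in WT host tumours (log2 fold change -2.13; edgeR adjusted p = 0.0493). At Ighv8-10 the host tumour B5 lay within the gel range. The log2 fold changes of Ighv1-61, Ighv2-6, Ighv1-7, Ighv1-52 and Ighv5-19 lay between -2.98 (Ighv2-6) and -1.74 (Ighv1-61), with edgeR adjusted p between 0.0359 and 0.0490. Gm37976 had 1 variant in A9 as the only gel count, and 13, 0 and 16 in KO host tumours and 25, 0 and 6 in WT host tumours (edgeR adjusted p = 0.0425).

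Of the 10 segments, 4 had a coding variant in any tumour, with 10 in gel tumours and 47 in host tumours. All listed counts include coding variants, so this split is part of what was used to call the segments and adds no support. Ighv1-67 in A2 alone held 9 of those in gel tumours, and Ighv1-67 had 8, 0 and 1 in KO host tumours and 11, 0 and 5 in WT host tumours. In the order of 210 heavy chain segments, 9 of the 10 called segments have a place. Ighv1-66 and Ighv1-67 stand side by side at places 185 and 186, Ighv8-10 is at 182, and the others lie at 48 (Ighv2-6), 62 (Ighv5-19), 111 (Ighv1-7), 157 (Ighv8-4), 162 (Ighv1-52) and 174 (Ighv1-61). The number of calls changed with single tumours and with the scaling: edgeR called 0 segments without A9 and 0 without B1, where it called 0.288% and 0.427% of genes. Without B5 it called 32 segments (9.61%, against 8.63% of genes), and without A9 and B5 it called 18 (5.66%, against 5.92% of genes). With the summed count as library size it called 1 segment (0.295%, against 1.60% of genes), and with TMM factors 2 (0.590%, against 2.1% of genes).

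**Figure D5:**
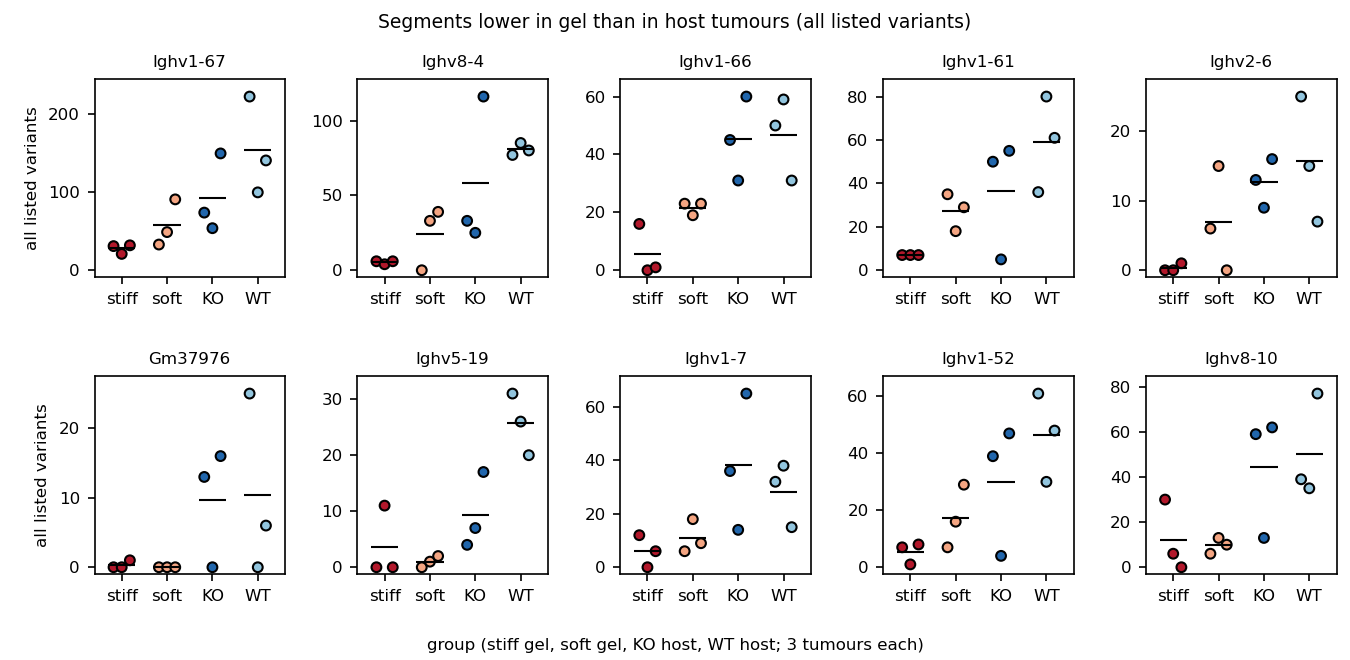
All listed variants per tumour (vertical axis, count) in the 10 segments called lower in gel tumours, with stiff gel, soft gel, KO host and WT host tumours from left to right and bars at group means. Gel and host points overlap in 9 segments and are apart in Ighv1-66.

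No segment was called for a difference between the effect of KO relative to WT hosts and that of stiff relative to soft gels. Many segments could not have been called, because this contrast cannot be estimated where a group of only 0s stands on each side. Ighv9-1, with 0 in each stiff gel and each KO host tumour, is an example. The interaction term called 0% of genes on coding variants and 0.0268% on all listed variants, with 0 segments in each, and the lowest edgeR adjusted p of a segment was 0.979 on coding variants and 0.988 on all listed variants. A test of any difference among the 4 groups called 0% of genes on coding variants. On all listed variants it called 0.537% of genes and 2 segments, Gm42990 (edgeR adjusted p = 0.0210) and Ighv1-67 (edgeR adjusted p = 0.0491).

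Genes that act on immunoglobulin DNA or partner its products were counted the same way, and edgeR called 0 of them in each comparison. The members tested numbered 5, 8 and 6 between stiff and soft gels, 4, 7 and 6 between KO and WT hosts, and 6, 10 and 7 between gel and host tumours, for the lists in the order below, and 1 test, of a hypermutation gene between stiff and soft gels, had an unadjusted p under 0.05. V(D)J recombination genes, such as the recombinase gene Rag1, had coding variants in 8 of 14. Their sum averaged 6.33 ± 0.577 in stiff gel tumours and 9 ± 2.65 in soft gel tumours, and 9 ± 2.65 in KO host tumours and 9.67 ± 2.08 in WT host tumours (SD, n = 3 each). Hypermutation and class switching genes had coding variants in 11 of 16. Their sum averaged 44.0 ± 3.61 in stiff gel tumours and 46.3 ± 11.1 in soft gel tumours, and 39.7 ± 4.93 in KO host tumours and 44.7 ± 3.51 in WT host tumours (SD, n = 3 each). Msh6, a mismatch repair gene, had 18, 17 and 15 in stiff gel tumours and 18, 22 and 12 in soft gel tumours, with 13, 15 and 14 in KO host tumours and 19, 21 and 14 in WT host tumours. B cell receptor partners had coding variants in 9 of the 16 listed. Their sum averaged 12.3 ± 4.04 in stiff gel tumours and 19.0 ± 2.65 in soft gel tumours, and 15.3 ± 7.09 in KO host tumours and 23.0 ± 1.73 in WT host tumours (SD, n = 3 each). Ms4a1, which encodes the B cell surface protein CD20, had 10, 1 and 1 in stiff gel tumours and 14, 11 and 13 in soft gel tumours, with 6, 1 and 13 in KO host tumours and 14, 13 and 13 in WT host tumours. The stiff gel tumours were all below the soft gel tumours at Ms4a1 (log2 fold change -1.63; edgeR adjusted p = 1), and A8, A9 and B5 had 1 each. Without Ms4a1, a sum added after its values were seen, the partners averaged 8.33 ± 1.15 in stiff gel tumours and 6.33 ± 1.15 in soft gel tumours, and 8.67 ± 1.15 in KO host tumours and 9.67 ± 1.53 in WT host tumours (SD, n = 3 each). The order of stiff and soft gels in the partners' sum thus turned with this gene.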

How the data were processed

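Whole-exome libraries of the 12 tumours were made with the SureSelectXT Mouse Exon kit and sequenced as paired 150 bp reads on Illumina NovaSeq instruments to a stated depth above 50x (6 Gb), per the labels' protocols. BWA 2.2.1, SAMtools 1.19.2, GATK and the GRCm39 build are named in the submitters' processing notes. Caller settings, variant filters and any matched normal were not given in the sources used here. Deposited tables hold, per transcript, the authors' snpEff counts of variants by impact and effect, per the file headers.

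For each gene the maximum count over transcripts was taken (python 3.11.15, pandas 2.3.3, numpy 2.4.6). Genes with a summed count of at least 3 in the tumours of a fit were tested with edgeR 4.0.16 (R 4.3.3; quasi-likelihood, robust, equal library sizes), with Benjamini-Hochberg adjustment over all genes at 0.05. Stiff against soft and KO host against WT host used their 6 tumours, and the other contrasts used 12. In edgeR, gel minus host and the interaction could not be estimated for a gene with a group of only 0s on each side. The approximate SE is the log2 fold change divided by the square root of F; edgeR does not give it. Sums over segments have no p. Exact permutation p-values, not adjusted, were computed only for segments called or without overlap. The fits were tested on simulated data, with changes planted only in genes above a minimum mean count. On coding variants they recovered 14% (stiff minus soft), 2% (KO host minus WT host) and 12% (gel minus host) of 2-fold changes. For 4-fold changes these shares were 90%, 40% and 84%. A single dispersion was used for each comparison (0.0413, 0.159 and 0.116 in that order). Recovery in the immunoglobulin segments themselves was not tested, so these shares are not given for them. Some segments, such as Ighv5-6, varied widely between replicates. A lack of calls therefore says little about 2-fold changes, or about segments with sparse or widely varying counts. Alternatives were DESeq2 1.42.0, other scalings, filters and transcript sums, HIGH and MODERATE variants only, and tumours left out. Figures used matplotlib 3.10.9.

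The members and lists were chosen with earlier results of these data known. Segments named by rule were all constant genes, the 3 with the highest mean count in each class, those called, and those whose groups did not overlap on coding variants (at most 10 per direction). The tumours of a group are not stated to come from separate donors, so p-values measure only the spread between these samples. Segment order came from a RefSeq table of another build (GRCm38.p6), so no coordinates are given.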

Additional observations from a re-analysis of the deposited data

Results flagged for a closer look

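Within the 6 gel or the 6 host tumours, 17 of 58 checks found a tumour far from the others, where chance alone flags about 1 in 20 groups. That rate is for continuous values. It does not hold for segments whose counts are mostly 0 or equal, such as Ighd4-1, Ighd5-2, Ighg2c and Ighj2, where 1 differing tumour can be enough. The checks also share tumours and overlapping flanks, so the number found is not set against it. A9 stood apart from the other gel tumours by low all listed counts, with 2081 over all pseudogenes, 122 in Ighv1-35, 70 in Ighv1-29 and 48 in Ighv8-7. B5 stood apart from the other host tumours in the same direction, with 63 in Ighv1-29, 41 in Ighv8-7, 0 coding variants in Ighj2 and 0.998 coding variants in functional segments per 100 in protein-coding genes. Among gel tumours, A7 was high in Igha with 8 coding variants and A2 in Ighg2b with 9, while A2 was low in Ighj1 with 2 and A3 in Ighe with 1. A3 was the only gel tumour with a coding variant in Ighg2c (1) and in Ighd4-1 (1). Among host tumours, B1 was high in Ighg2b with 8 and Ighg2c with 6, and B4 was the only one with a coding variant in Ighd5-2 (1).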

How the results depend on the processing

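No paired analysis was possible because stiff and soft gel tumours, and KO and WT host tumours, share no replicate numbers. In contrasts over all 12 tumours only soft gel and WT host tumours share numbers (1 to 3), and a block by number would leave the stiff gel and KO host means inestimable. No immunoglobulin segment was called on coding variants in any of the 100 combinations of comparison and setting run. In edgeR, many segments could not have been called for gel minus host or the interaction. Genes called on coding variants, 0 in each comparison, became 2 (gel minus host) and 2 (any difference) with DESeq2. Gel minus host gave 1 with TMM factors and 3 with the summed count as library size. With no count filter there were 7 (stiff minus soft), 8 (gel minus host) and 9 (any difference). Leaving out 1 tumour gave 0 to 2 for gel minus host and for any difference.

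On all listed variants, stiff minus soft (3 genes) gave 10 with DESeq2, 84 with no filter, and 0 with a summed count of at least 10, with transcript sums, without blank biotypes, in the 12-tumour fit and without A9 and B5. KO host minus WT host (1 gene) gave 45 with DESeq2, 29 with TMM, 40 with the summed count as library size, 21 with no filter, 33 in the 12-tumour fit, and 0 with at least 10, with transcript sums and without A9 and B5. Gel minus host (1433) gave 776 with the summed count as library size, 117 with transcript sums and 2811 without A9 and B5. The share of its calls that were higher was 4.26%, against 22.4% with the summed count as library size, which moved the median log2 fold change of all genes to 0.15. The interaction (13) gave 38 with DESeq2, 22 with TMM, 23 with the summed count as library size, 3 with transcript sums and 3 without A9 and B5. Any difference (261) gave 1042 with DESeq2, 525 with TMM, 558 with no filter, 65 with at least 10, 9 with transcript sums and 576 without A9 and B5. With 1 tumour left out the ranges were 0 to 10, 0 to 2, 138 to 4163, 6 to 16 and 21 to 2164 in that order of comparisons.

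Of the differences in sums, stiff minus soft turned for functional segments (1.67 with transcript sums, 34.7 without A9 and B5), V segments (25.2 without A9 and B5) and pseudogenes (107 without A9 and B5). KO host minus WT host stayed negative, at -31.7 in constant genes with transcript sums and -79.3 in pseudogenes by noncoding exon variants. With 1 tumour left out, stiff minus soft ranged from -36.3 to 34.7 (functional), -34.3 to 25.2 (V), -2.5 to 8.5 (constant), -838 to 107 (pseudogenes) and -0.0479 to 0.313 (per 100). KO host minus WT host ranged from -143 to -53.7, -122 to -40.5, -22 to -11, -1845 to -457 and -0.256 to -0.0834. Gel minus host ranged from -61.2 to -10.2, -50.6 to -6.63, -9.7 to -2.9, -1271 to -536 and 0.0914 to 0.236. The causes were not tested. Of the 10 segments, Ighv1-67 lost its gel minus host call in 3 of 20 alternatives (edgeR or DESeq2 adjusted p 0.000589 to 0.0617), Ighv8-4 in 8, Ighv1-66 in 9, Ighv2-6 in 11, Ighv1-7 in 12, Ighv5-19 and Gm37976 in 13 each, and Ighv8-10, Ighv1-61 and Ighv1-52 in 15 each. Read depth is unknown, so the precision of a count could not be given.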
